A study of Mus musculus with 31 samples.

Results

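A list of 10 genes that mark microglia and macrophages was followed through every library of a study of the RNA bound to ribosomes in mouse pain-sensing neurons. The genes were Ly86, Cd74, Aif1, C1qa, C1qb, C1qc, Csf1r, Tyrobp, Cx3cr1 and Lyz2. They were chosen from knowledge of myeloid markers, as a list of symbols, with earlier results on these same libraries known, so their levels are given as a description and without p-values. Further marker lists used below were also chosen with those results known. Adjusted p-values given for their genes are therefore part of the description and not independent tests. The rows were found by matching the gene identifiers of the deposited count tables to the GENCODE M21 annotation. All 10 members were found, each in 1 row, among 55536 gene identifiers.

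Microglia are the resident macrophages of the spinal cord, and other macrophages live in peripheral nerve and in dorsal root ganglia (DRG, the clusters of sensory neuron cell bodies beside the spinal cord). Both kinds of cell depend on the growth factor receptor encoded by Csf1r, clear debris and react to nerve injury, and microglia also prune synapses through complement. The 10 genes are used as markers of these cells because neurons are not known as a main source of their RNA.

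The study used translating ribosome affinity purification (TRAP), in which an antibody to green fluorescent protein pulls down ribosomes that carry the tagged ribosomal protein L10a-eGFP. In Nav1.8-Cre;L10a-eGFP-fl/fl mice, Cre recombinase driven from Scn10a, the gene of the sodium channel Nav1.8, switches the tag on in neurons of the Nav1.8 lineage. L10a-eGFP-fl/fl mice without Cre went through the same pulldown, and their libraries (called controls here) hold the RNA recovered without a tagged ribosome. Both genotypes carry the floxed L10a-eGFP allele, and age and sex are not given in the sources used here. For the central axon, spinal cord was collected with the lumbar dorsal roots. Sciatic nerve gave the peripheral axon, and lumbar DRG gave the somas. In batch 1 there were 4 central axon Cre libraries, 4 central axon controls, 4 soma Cre libraries and 4 soma controls. In batch 2 there were 4 peripheral axon Cre libraries, 3 peripheral axon controls, 4 soma Cre libraries and 4 soma controls. A batch here is the batch number in the labels, and the central axon is only in batch 1 and the peripheral axon only in batch 2. The labels call the replicates biological.

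The 31 libraries held between 3601399 and 19637292 counts, so that 3 counts, taken as the smallest amount that can be told from 0, correspond to 0.153 to 0.833 CPM (counts per 1000000 counts of the library). The libraries carry no molecular identifiers, and these floors cover counting error only. Genes with 10 counts or more numbered from 4934, in batch 1 soma control replicate 3, to 16509, in a peripheral axon Cre library. Batch 1 soma control replicate 3 stood apart from the others. Its TMM scaling factor (trimmed mean of M values, the correction that edgeR applies to the library total) was 0.0552 in the batch 1 soma comparison, where the other 7 libraries had 1.31 to 1.79. The fold changes of Ly86, the counts of members called and the group means of Ly86 and of the summed other members that include it are given with and without it. A pair of soma controls of batch 1 carry the same column name and are called a and b, since their replicate number is not known. The Nav1.8 gene Scn10a, which should be present in the labelled neurons, was at 45.1 to 421 CPM in the Cre libraries of the central axon and at 0 to 29.9 CPM in its controls. In the peripheral axon it was at 42.1 to 304 CPM (Cre) and 0 to 127 CPM (control), which overlapped. In the somas it was at 312 to 505 CPM (batch 1 Cre) and 313 to 432 CPM (batch 2 Cre), and the ganglion controls also held it, at 33.4 to 625 CPM in batch 1 (89.2 to 625 without replicate 3) and 286 to 598 CPM in batch 2.

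The stretches of DNA before 3 of the member genes are shown because they belong to the gene that stands apart below, Ly86, and to a pair of neighbouring genes, C1qb and C1qc, that code for parts of one protein complex. Each is the 250 bases before the RefSeq start of the gene on assembly GRCm38.p6, 5′ to 3′ on the gene's own strand, with capitals marking the letters GAGGAA or, for the other strand, TTCCTC. GENCODE M21, used for the counts, starts Ly86 at 37345208 and C1qc at 136893065. By those starts, part of the Ly86 and C1qc stretches lies inside the gene. These letters are the core of the purine-rich element bound by PU.1, the transcription factor encoded by Spi1 that drives myeloid gene expression.
Ly86 (chr13:37345095-37345344, plus strand): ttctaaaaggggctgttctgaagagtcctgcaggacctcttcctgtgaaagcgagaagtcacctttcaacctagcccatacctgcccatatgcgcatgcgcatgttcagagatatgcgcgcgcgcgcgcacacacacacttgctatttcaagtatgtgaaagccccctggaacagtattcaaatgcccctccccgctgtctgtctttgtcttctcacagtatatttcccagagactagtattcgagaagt
C1qb (chr4:136886201-136886450, minus strand): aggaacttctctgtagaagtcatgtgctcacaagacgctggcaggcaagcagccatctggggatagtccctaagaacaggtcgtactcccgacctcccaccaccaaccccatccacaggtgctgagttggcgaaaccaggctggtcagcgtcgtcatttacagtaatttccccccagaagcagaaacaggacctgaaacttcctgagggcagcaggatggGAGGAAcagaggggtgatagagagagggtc
C1qc (chr4:136892915-136893164, minus strand): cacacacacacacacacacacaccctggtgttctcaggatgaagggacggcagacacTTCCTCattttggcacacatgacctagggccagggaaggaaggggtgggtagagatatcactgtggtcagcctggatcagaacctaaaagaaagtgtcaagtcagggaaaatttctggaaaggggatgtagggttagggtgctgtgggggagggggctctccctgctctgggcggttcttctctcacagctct
RefSeq stretches were at hand for 6 of the 10 members. GAGGAA was found on either strand in 3 of these 6, C1qb, C1qc and Aif1, and not in those of Ly86, Cx3cr1 and Lyz2. Of 32851 such stretches of all genes, 23.3% held the letters. A match is a description of the sequence only.

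Ly86 encodes MD-1, a small secreted protein that binds the receptor CD180 on B cells, macrophages and dendritic cells. The gene lies on chromosome 13 (GRCm38, 37345208 to 37419036, plus strand), is protein-coding and shares no exon base with another gene. The central axon Cre libraries held it at 326, 338, 480 and 175 CPM (3457, 3765, 5313 and 1823 counts). The 4 central axon controls held it at 1.29, 7.42, 0 and 3.38 CPM, so the 2 groups were far apart with no overlap. In the peripheral axon Cre libraries Ly86 was at 135, 294, 403 and 299 CPM, and in their 3 controls at 656, 121 and 86.0 CPM. There the groups overlapped, and the highest of the 7 libraries was a control.

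In the batch 1 somas Ly86 was at 672, 1013, 1190 and 534 CPM in the Cre libraries. The controls had 132 CPM in replicate 1, 212 in a, 308 in b and 1331 CPM in replicate 3, the library that stands apart. Without replicate 3 the highest control was below the lowest Cre library. With it the groups overlapped. Ly86 in the batch 2 somas was at 739, 648, 794 and 756 CPM in the Cre libraries and at 631, 181, 287 and 146 CPM in the controls, with all Cre libraries above all controls.

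Ordered by mean CPM ± SD, Ly86 was highest in the batch 1 Cre somas (852 ± 302, n = 4) and the batch 2 Cre somas (734 ± 62.2, n = 4). The batch 1 soma controls (496 ± 562, n = 4; 217 ± 88.1 without replicate 3), the central axon Cre libraries (330 ± 125, n = 4), the batch 2 soma controls (311 ± 221, n = 4), the peripheral axon controls (288 ± 319, n = 3) and the peripheral axon Cre libraries (283 ± 110, n = 4) followed. The central axon controls came last at 3.02 ± 3.25 CPM (n = 4). Neighbours in this order overlapped in every case but the last step, from the peripheral axon Cre libraries down to the central axon controls. Ly86 was an abundant transcript: it ranked as high as 92 of all genes by count, in a batch 1 Cre soma, and it was above 3 counts in 30 of 31 libraries.

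**Figure D1:**
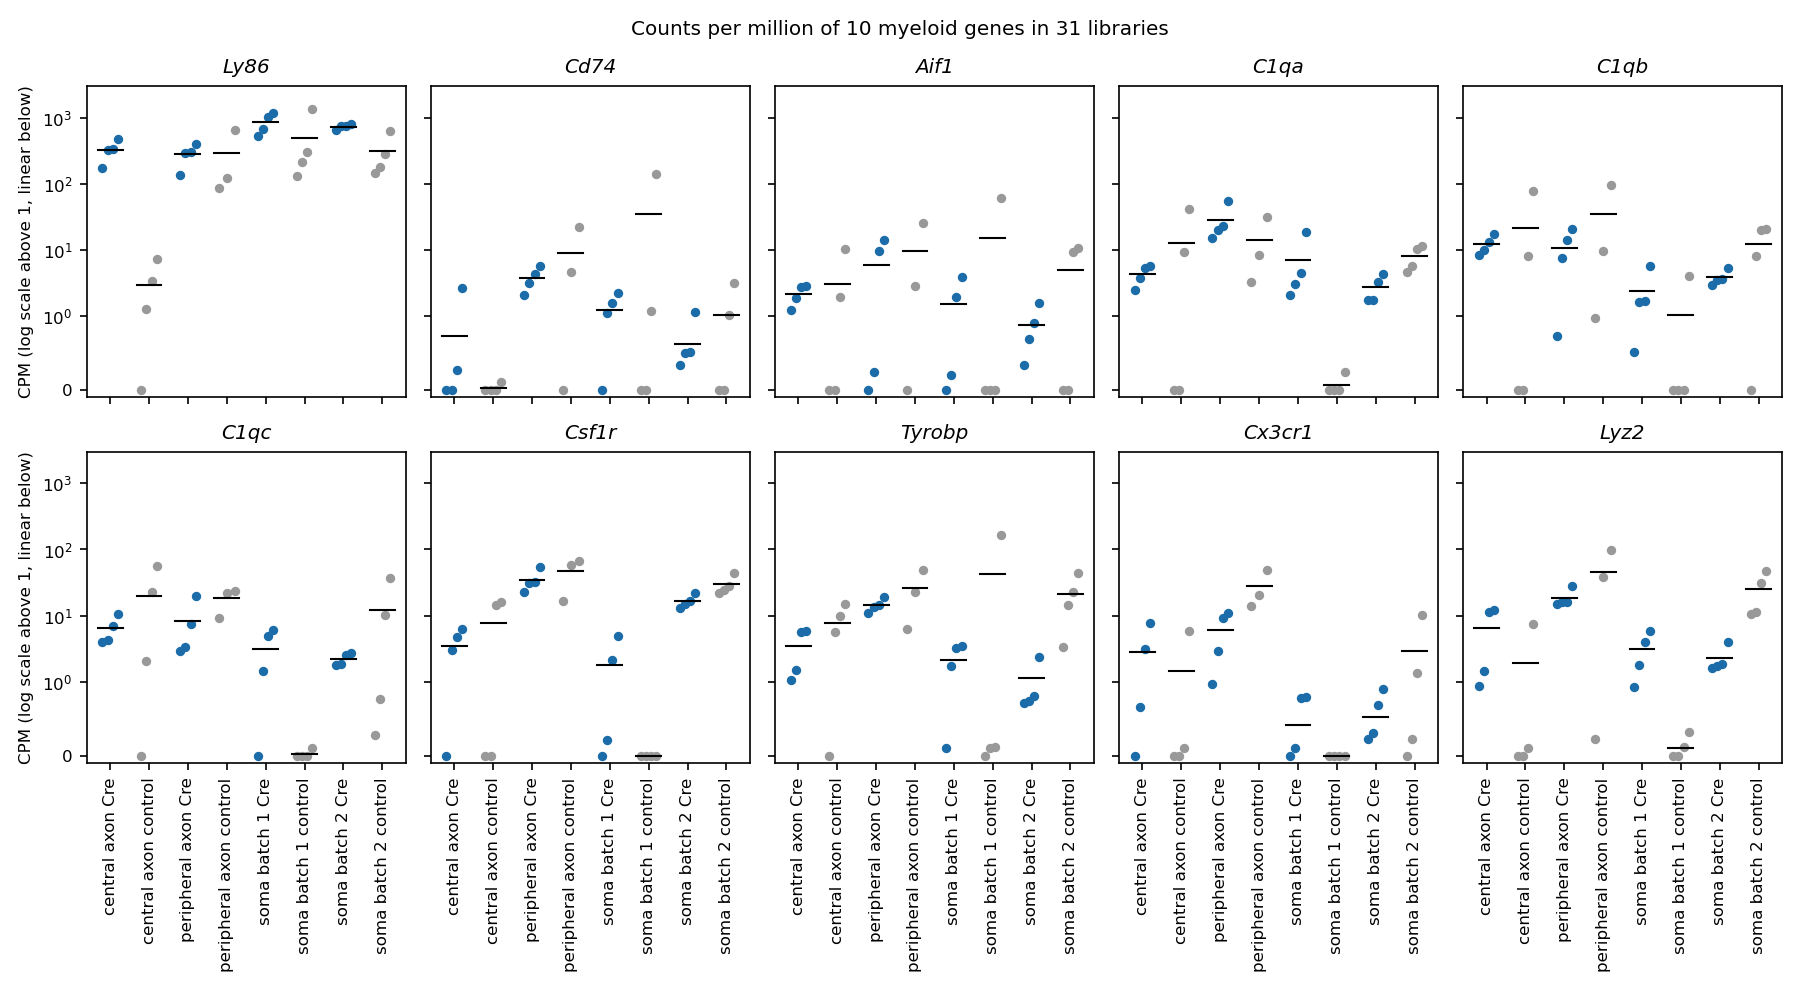
Each panel shows one gene, with CPM on a scale that is logarithmic above 1 and linear below, the 8 groups along the horizontal axis, one point per library (blue for Cre, grey for control) and a line at the group mean. Ly86 lies between 135 and 1190 CPM in all Cre libraries and at 0 to 7.42 CPM in the central axon controls. The other 9 genes are at 0 in 10 of 144 Cre values and 50 of 135 control values.

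The other members behaved differently. Their summed CPM was highest in the sciatic nerve, with 234 ± 146 (n = 3) in the controls and 132 ± 41.8 (n = 4) in the Cre libraries. It was lowest in the Cre somas, with 23.0 ± 19.2 (n = 4) in batch 1 and 31.2 ± 9.48 (n = 4) in batch 2. The soma controls held 93.8 ± 76.8 (n = 4, batch 1; 124 ± 56.5 without replicate 3, n = 3) and 118 ± 50.1 (n = 4, batch 2), and the central axon 42.5 ± 17.8 (Cre, n = 4) and 76.1 ± 17.8 (control, n = 4). The mean of Ly86 was highest in the groups where the mean sum of the others was lowest, the Cre somas. In bulk samples such as these, fewer cells of a type and less RNA per cell cannot be told apart. Fibroblast and erythroid markers shifted between the groups as well: the 5 fibroblast markers summed to 132 to 273 CPM in the batch 2 Cre somas and 659 to 2156 CPM in their controls, and the erythroid markers to 25.4 to 145 and 85.1 to 1802 CPM. Their part in the result was not tested.

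To compare levels between genes, counts were divided by exon length as well (TPM, the length-scaled value per 1000000 over all genes). In all 16 Cre libraries the TPM of Ly86 was above that of each of the other 9 genes. Of the control libraries, Ly86 was above all 9 in 3 of 4 batch 2 somas, 1 of 4 batch 1 somas, 1 of 3 peripheral axons and 0 of 4 central axons. It was 36.4 to 79.2 times the highest other member in the batch 2 Cre somas, 8.14 to 110 times in the batch 1 Cre somas, 3.03 to 14.3 times in the central axon Cre libraries and 1.58 to 3.84 times in the peripheral axon Cre libraries. Ly86 made up 88.6 to 95.0% of the summed TPM of the 10 genes in the batch 2 Cre somas. Where spinal cord RNA came down without a tag, in the central axon controls, it made up 0 to 3.25%.

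**Figure D2:**
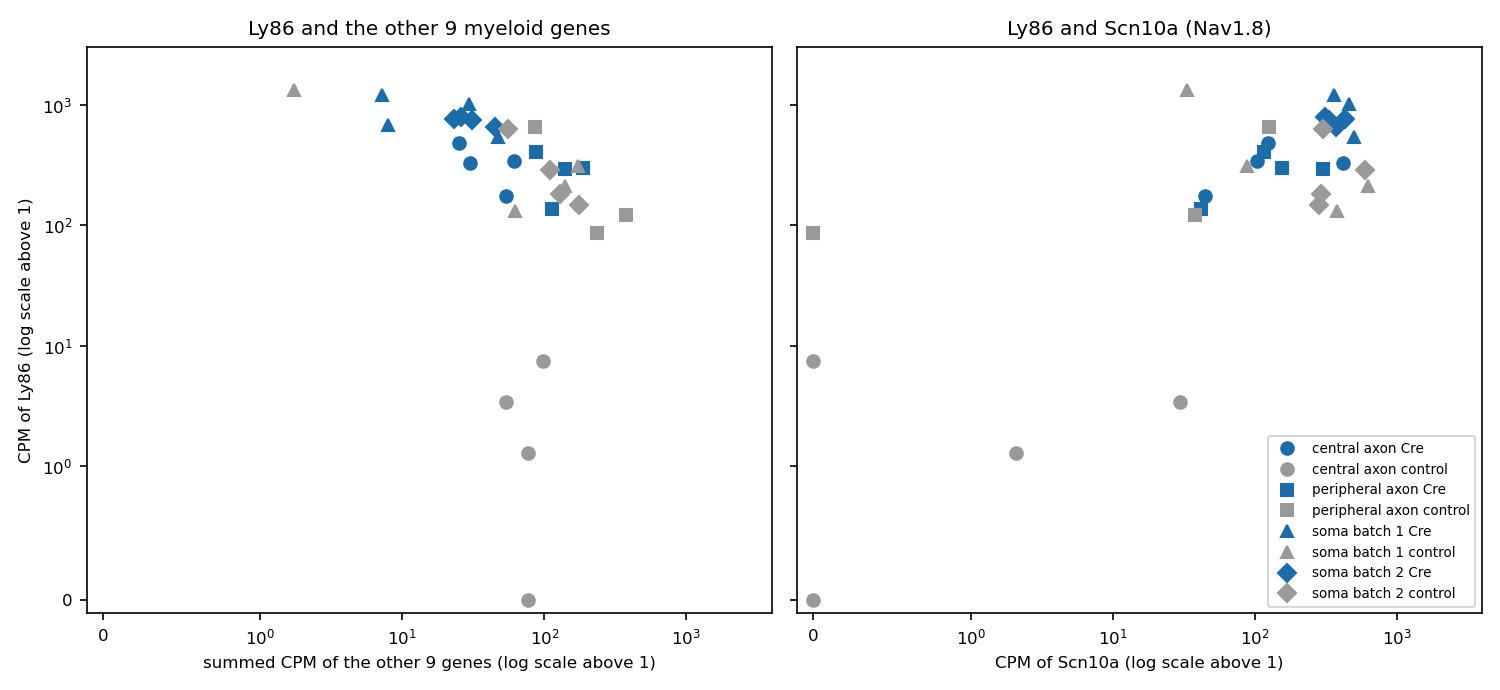
Left, CPM of Ly86 against the summed CPM of the other 9 genes; right, against the CPM of Scn10a; both axes are logarithmic above 1, each point is a library, blue is Cre, grey is control and the shape is the compartment. The batch 1 Cre somas pair 534 to 1190 CPM of Ly86 with 7.16 to 47.2 CPM of the others, and the central axon controls lie apart at 0 to 7.42 CPM of Ly86.

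The genes whose levels ran most like Ly86 were sought over all 31 libraries, as the highest Pearson r of log2 normalised CPM among 18258 genes with at least 10 counts in at least 4 libraries. They were Ppp1r1c (a protein phosphatase inhibitor subunit, r = 0.93), Anxa2 (annexin A2, 0.91), Nrn1 (neuritin, 0.91), Pirt (a regulator of TRPV channels in sensory neurons, 0.91) and Aqp1 (a water channel, 0.91). They were picked for this likeness, so their levels are a description. Pirt was at 409 ± 257 CPM (n = 4) with Cre in the central axon and 4.78 ± 5.58 (n = 4) in the controls, and at 1044 ± 95.9 (Cre, n = 4) and 702 ± 91.8 (control, n = 4) in the batch 2 somas. Ppp1r1c was at 518 ± 241 against 21.04 ± 23.04 CPM in the central axon and at 1005 ± 176 against 662 ± 156 CPM in the batch 2 somas (n = 4 each). In the peripheral axon, Cre against control, Pirt was at 289 ± 176 against 185 ± 197 CPM and Ppp1r1c at 329 ± 186 against 197 ± 224 CPM (n = 4 and 3), and in the batch 1 somas at 644 ± 94.0 against 419 ± 320 and 968 ± 152 against 380 ± 229 CPM (n = 4 each). Nrn1 lies on the same chromosome as Ly86 (GRCm38 chromosome 13, 36725361 to 36735131, minus strand).

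None of the other 9 members came near these values. Their r with Ly86 ran from −0.13 (C1qb) to 0.41 (Cd74), with a median of −0.01, against a median of 0.16 over all genes compared. The 6 nociceptor markers, genes of pain-sensing neurons, had r from 0.58 (P2rx3) to 0.86 (Calca, the precursor of the peptide CGRP), with a median of 0.75. Scn10a had 0.80 and Prph, the neuronal filament peripherin, 0.77. Among themselves the other 9 members had a median r of 0.37 over their 36 pairs, with a range from −0.08 to 0.68. The libraries share tissue, batch, pulldown and depth, so these coefficients describe the outline over groups and no p is attached. When each library was taken as its deviation from its group mean, the nociceptor markers kept a median r of 0.42 with Ly86 and the other members had 0.09, against 0.21 over all genes.

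**Figure D3:**
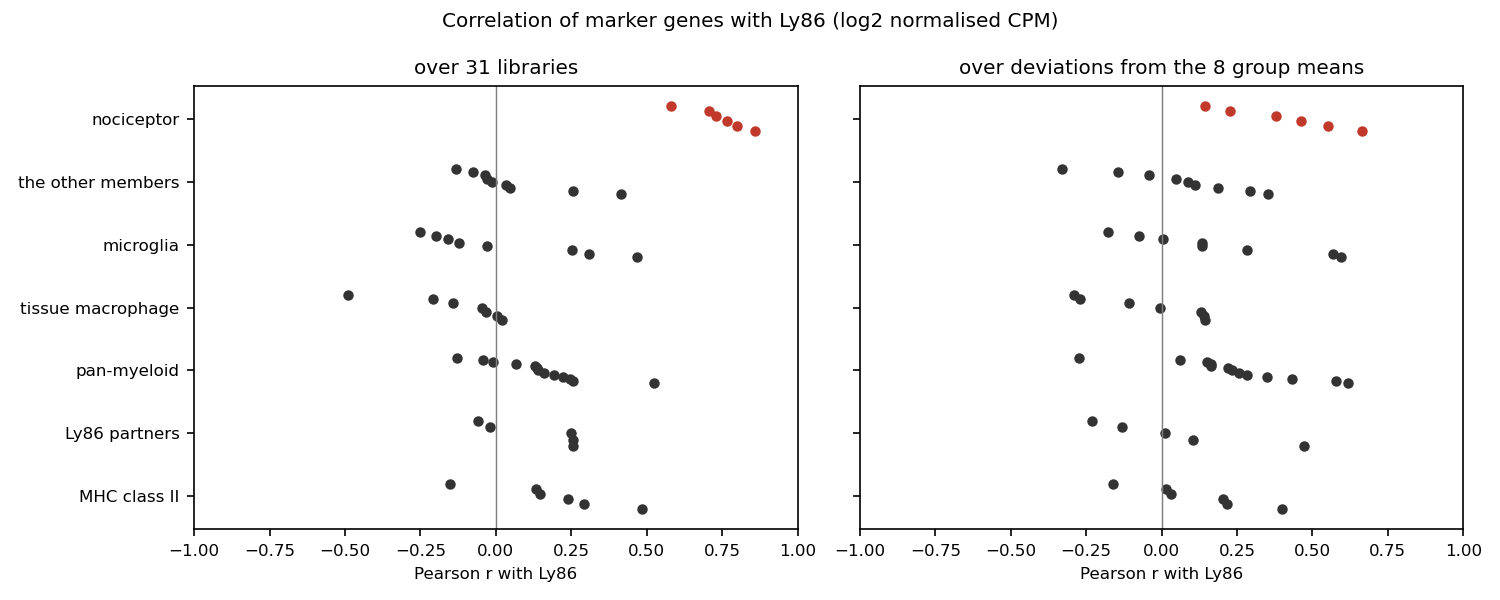
Pearson r with Ly86 for each gene of 7 lists, over 31 libraries on the left and over deviations from the group means on the right; every point is a gene and the nociceptor markers are in red. On the left the nociceptor markers lie between 0.58 and 0.86 and the other members between −0.13 and 0.41.

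The partners of MD-1 and the related lipopolysaccharide receptor genes were low in the Cre somas, the groups with the highest mean of Ly86. Cd180, the receptor that MD-1 binds, had a mean of 0.15 CPM in the batch 1 Cre somas and 0.66 CPM in the batch 2 Cre somas, with at most 0.74 CPM in any of these 8 libraries. Tlr4 was at 0 in all 4 batch 1 Cre somas and at most 0.06 CPM in batch 2, and Tlr2 at 0 and at most 0.19 CPM. Ly96, which encodes MD-2, the MD-1 relative that serves TLR4, was at 2.12 and 2.20 CPM in the Cre somas of the 2 batches. Cd14, the co-receptor, was at 156 CPM in 1 batch 1 soma control and at most 0.78 CPM in the Cre somas. The 5 genes had r from −0.06 to 0.26 with Ly86.

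C1qa, C1qb and C1qc encode the chains of C1q, the recognition part of the classical complement pathway, and lie side by side on chromosome 4 (GRCm38, 136880129 to 136898803, minus strand). C1qb was at 8.40, 13.5, 10.04 and 17.2 CPM in the Cre libraries of the central axon and, in the controls, at 8.08, 0, 77.3 and 0 CPM. C1qa was at 5.38, 5.83, 2.53 and 3.83 CPM (Cre) and at 9.37, 0, 0 and 41.4 CPM (control), and C1qc at 4.25, 7.00, 3.98 and 10.7 (Cre) and 22.9, 55.8, 0 and 2.05 CPM (control). The Cre libraries were even and the controls were patchy, and the control libraries at 0 were not the same for the 3 chains. Control replicate 3, for one, held 77.3 CPM of C1qb and no count of the other 2 chains.

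In the sciatic nerve C1qa was at 15.1, 23.3, 20.3 and 54.3 CPM in the Cre libraries and 8.36, 31.4 and 3.34 CPM in the controls, which overlapped. C1qb was at 7.54, 20.5, 0.73 and 14.0 CPM (Cre) and 9.68, 95.0 and 0.98 CPM (control), and C1qc at 3.40, 7.44, 2.93 and 19.8 CPM (Cre) and 23.3, 9.25 and 22.4 CPM (control). C1qa in the batch 2 somas was at 3.25, 4.43, 1.78 and 1.77 CPM in the Cre libraries and at 5.81, 4.69, 11.4 and 10.4 CPM in the controls, all of them above the Cre libraries. C1qb and C1qc had mean levels in the same direction there (3.86 against 12.3 and 2.26 against 12.3 CPM), with overlap. In the batch 1 soma controls C1qa had 2 counts in 1 library and none in 3, replicate 3 among them, against 2.07 to 18.8 CPM in the Cre somas. C1qc was at most 0.11 CPM in these controls and at 0 to 6.09 CPM in the Cre somas. C1qb was at 4.13 CPM in control b and at 0 in the other controls, against 0.52 to 5.75 CPM in the Cre somas, which overlapped.

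Of 9 other complement genes, the regulator Serping1 (C1 inhibitor) was the best measured. It was at 54.6 CPM in the peripheral axon Cre libraries (range 22.5 to 87.1) and 144 CPM in nerve controls (98.1 to 171), and at 14.0 CPM (10.9 to 22.1) and 45.0 CPM (36.1 to 65.6) in the batch 2 somas. In the peripheral axon Cre libraries Serping1 rose by 1.75 ± 0.41 (log2 fold change ± SE) over the somas and the protease gene C1s1 by 4.92 ± 1.30 (edgeR quasi-likelihood, adjusted p = 0.0073 and 0.0145), 2 of 5 complement genes tested, in a comparison in which 31.1% of all genes passed. Serping1 is also made by fibroblasts, whose 5 markers summed to 2757 to 5020 CPM in those axon libraries. The part of these cells in the result was not tested.

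Csf1r encodes the receptor for the macrophage growth factors CSF1 and IL-34 (chromosome 18, GRCm38, 61100598 to 61132149, plus strand). In batch 2 it was at 55.0, 31.1, 22.5 and 32.2 CPM in the peripheral axon Cre libraries, 16.5, 58.1 and 66.6 CPM in the nerve controls, 16.9, 22.0, 14.97 and 12.9 CPM in the Cre somas and 24.3, 44.6, 28.6 and 21.7 CPM in the soma controls. In batch 1 it was at 0, 6.37, 4.79 and 3.06 CPM in the central axon Cre libraries, at 14.7, 16.1, 0 and 0 CPM in the controls, at 0.21, 2.14, 0 and 4.90 CPM in the Cre somas and at 0 in all 4 soma controls. Its mean was highest in the nerve controls, and the soma levels of the 2 batches did not overlap. Exons of Hmgxb3, a gene on the opposite strand, cover 873 bases of Csf1r, 15.1% of its exon length. How the counting treated strand is not given in the sources used here, so reads from that stretch cannot be told apart. Hmgxb3 was at 18.5 to 26.4 CPM in the batch 2 Cre somas and 3.44 to 9.75 CPM in those of batch 1.

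The ligand genes of Csf1r had low levels throughout. Csf1 was at 15.2 CPM (10.8 to 18.3) in the central axon Cre libraries, 7.33 CPM in the peripheral axon Cre libraries and 4.78 and 4.07 CPM in the Cre somas of batches 1 and 2. Il34 was at 3.68, 8.44, 4.43 and 3.17 CPM in the same groups. Neither passed the test between axon and soma in either batch.

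Tyrobp encodes DAP12, the adaptor through which TREM2 and other myeloid receptors signal (chromosome 7, GRCm38, 30413760 to 30417585, plus strand). Batch 2 somas had it at 0.81, 2.38, 0.71 and 0.74 CPM in the Cre libraries and at 3.37, 14.3, 22.5 and 44.5 CPM in the controls, with no overlap and a log2 fold change of −3.90 ± 0.94 (SE). In the sciatic nerve it was at 11.2, 13.5, 19.3 and 14.4 CPM (Cre) and 6.38, 49.3 and 23.0 CPM (control). The Cre libraries of nerve were all above the Cre somas of the same batch. In batch 1 the soma controls were 1 library at 168 CPM (b) and 3 at 0.12 CPM or less, against 0.10 to 3.44 CPM in the Cre somas. Central axon levels of Tyrobp were 1.09 to 5.83 CPM (Cre) and 0 to 14.97 CPM (control).

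Trem2 encodes a receptor that pairs with DAP12. It was at 6.09 CPM (5.11 to 7.81) in the peripheral axon Cre libraries and 0.63 CPM (0.40 to 1.09) in the batch 2 Cre somas, and rose by 3.08 ± 0.73 (log2 fold change ± SE, edgeR quasi-likelihood, adjusted p = 0.00792). The 3 nerve controls held 0 to 4.84 CPM of Trem2 (mean 2.13), below all Cre libraries of nerve, whereas Tyrobp had the higher mean in the controls (26.2 against 14.6 CPM). Of the 6 genes fixed for signalling downstream of DAP12 (Syk, Plcg2, Inpp5d, Hcst, Vav1 and Lcp2), 2 could be tested there and 0 passed. The kinase gene Syk stayed at or below 4.85 CPM in each peripheral axon Cre library.

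Cx3cr1 encodes the fractalkine receptor of microglia and patrolling macrophages (chromosome 9, GRCm38, 119901616 to 120069879, minus strand). In the sciatic nerve it was at 13.9, 49.0 and 20.6 CPM in the controls and at 0.97, 9.36, 2.93 and 10.9 CPM in the Cre libraries. These did not overlap, with a log2 fold change of −2.19 ± 1.14 (SE). Batch 2 somas had it at 0.23 to 0.90 CPM (Cre) and at 1.38, 10.1, 0 and 0.22 CPM (control), and in batch 1 at 0 to 0.79 CPM (Cre somas) and 0 in all soma controls. Central axon levels were 0.66, 7.71, 0 and 3.16 CPM (Cre) and 5.82, 0, 0 and 0.10 CPM (control). The 78 bases that its exons share with Gm33858 on the other strand are 1.73% of its length.

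Its ligand gene Cx3cl1, fractalkine, is a neuronal transcript in the spinal cord. It was at 83.5 CPM (27.55 to 105) in the central axon Cre libraries and 110 CPM (3.70 to 221) in the controls, against 0.40 CPM in the peripheral axon Cre libraries and 2.81 and 1.27 CPM in the Cre somas of batches 1 and 2. Cx3cl1 was higher in these Cre libraries than in the batch 1 Cre somas by 4.50 ± 0.85 on the log2 scale (edgeR quasi-likelihood, adjusted p = 0.0055). The astrocyte markers summed to 248 to 1264 CPM in these axon libraries and 1.98 to 30.8 CPM in the Cre somas of the same batch. Their part in the difference was not tested.

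Aif1 encodes IBA1, the calcium-binding protein used to stain microglia (chromosome 17, GRCm38, 35170991 to 35176068, minus strand). It was at 1.89, 2.87, 1.27 and 2.78 CPM in the central axon Cre libraries and at 1.94, 10.4, 0 and 0 CPM in the controls. In the sciatic nerve it was at 0, 14.1, 0.24 and 9.71 CPM (Cre) and 2.86, 26.1 and 0 CPM (control). In the batch 1 soma controls it was at 61.9 CPM in replicate 1 and at 0 in the other 3, and the Cre somas had 0 to 3.97 CPM. The batch 2 somas had 0.34 to 1.61 CPM (Cre) and 0, 10.6, 0 and 9.30 CPM (control). No pair of groups compared here was without overlap for Aif1.

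Cd74 encodes the invariant chain of MHC class II and a receptor for the cytokine MIF (chromosome 18, GRCm38, 60803848 to 60812652, plus strand). It was at 2.64, 0.27, 0 and 0 CPM in the central axon Cre libraries and at 0, 0, 0 and 0.10 CPM in the controls. In the sciatic nerve it was at 5.84, 4.32, 3.17 and 2.08 CPM (Cre) and 4.62, 22.2 and 0 CPM (control). The batch 2 Cre somas had 0.34 to 1.16 CPM, below every nerve Cre library. In the batch 1 soma controls the gene was at 139 CPM in a, 1.19 CPM in replicate 3 and 0 in the other 2, against 0 to 2.24 CPM in the Cre somas.

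The MHC class II genes themselves were low. H2-Aa had a mean of 6.32 CPM (1.21 to 15.6) in the peripheral axon Cre libraries and 0.29 CPM in the batch 2 Cre somas, a rise of 4.13 ± 0.95 (log2 fold change ± SE, edgeR quasi-likelihood, adjusted p = 0.0072), the only 1 of 5 class II genes tested that passed, with 31.1% of all genes passing there. H2-DMa was the most even, with means of 12.9, 13.6, 13.6 and 11.1 CPM in the Cre libraries of central axon, peripheral axon and the somas of batches 1 and 2. H2-Eb1 was at 3.04 to 7.79 CPM in the batch 1 Cre somas and at 0 in all 4 of their controls. Mif, the ligand, was an abundant transcript in every group, at 704 CPM (524 to 925) in the batch 2 Cre somas and 144 CPM (92.6 to 244) in the central axon Cre libraries. Mif fell from soma to axon by 1.41 ± 0.40 on the log2 scale in batch 1 and by 1.08 ± 0.36 in batch 2 (adjusted p = 0.0354 and 0.0396).

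Lyz2 encodes lysozyme of macrophages and neutrophils (chromosome 10, GRCm38, 117277331 to 117282321, minus strand). In the batch 2 somas it was at 1.75, 3.98, 1.88 and 1.60 CPM in the Cre libraries and at 10.6, 11.3, 46.6 and 31.7 CPM in the controls. The controls were all above the Cre libraries, with a log2 fold change of −3.13 ± 0.76 (SE). In the sciatic nerve the Cre libraries were even, at 15.1, 15.9, 15.9 and 28.6 CPM, and the controls were scattered, at 0.22, 38.4 and 99.2 CPM. Its central axon levels were 0.94, 12.1, 1.45 and 11.5 CPM (Cre) and 7.596, 0, 0 and 0.10 CPM (control). The batch 1 soma controls had 0 to 3 counts each, the 3 counts being in replicate 3, and the Cre somas 0.93 to 5.95 CPM. The 6 neutrophil markers, S100a9 among them, summed to at most 11.4 CPM in any Cre library.

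Values of 0 were common among the 9 genes other than Ly86, and were unevenly spread. They made up 25 of 36 values (69.4%) in the batch 1 soma controls (20 of 27, 74.1%, without replicate 3) and 17 of 36 (47.2%) in the central axon controls, against 6 of 36 in the batch 2 soma controls and 2 of 27 in the peripheral axon controls. The Cre libraries had 10 zeros in 144 values (6.94%), and the batch 2 Cre somas had none. Library depth and the number of genes detected differed between these groups as well. Genes with 10 counts or more numbered 4934 to 7889 in the batch 1 soma controls and 12502 to 14015 in the batch 1 Cre somas. The batch 2 Cre somas held 15562715 to 19637292 counts and their controls 3601399 to 18080478. The part of depth and detection in the zeros was not tested. Apart from replicate 3, each batch 1 soma control had 1 gene that held nearly all of its signal, Aif1 in replicate 1, Cd74 in a and Tyrobp in b. Ly86 was well above 0 in all of these libraries.

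Each genotype and compartment was then compared in a fit over all genes with edgeR's quasi-likelihood test and Benjamini-Hochberg adjustment over all genes tested, a gene being called at an adjusted p under 0.05. Since the members were chosen with earlier results in view, the number called is given beside the share of all genes called, and nothing is read from it. In the central axon, Cre against control, 8 of 10 members could be tested and 0 were called, with 0.0141% of all genes called (2 of 14189). Ly86 alone had an unadjusted p under 0.05, and it was the 1 member called by DESeq2 and the 1 member called without control replicate 3, where 5 of 15282 genes were called. Its log2 fold change was 6.86 ± 1.11 (SE), while those of the other 7 tested ranged from −1.58 (C1qc) to 1.69 (Lyz2) with a median of −1.02, against 0.11 for all genes. Leaving out single controls turned Aif1 (1.70 without replicate 2), C1qb (2.15 without replicate 3) and C1qa (0.50 without replicate 4) to above 0. In the peripheral axon, 10 were tested and 0 called, with 0% of all genes called (0 of 13970, 514 at an unadjusted p under 0.05 and 88 by DESeq2). There 0 members had an unadjusted p under 0.05 and DESeq2 called 0. Ly86 was at 0.11 ± 0.69, and at 1.52 without control replicate 1, the library with 656 CPM. The other 9 had a median of −1.04, against 0.07 for all genes, with only C1qa above 0 (0.92 ± 1.01). Without control replicate 2, Cd74 (0.86), Aif1 (2.20), C1qb (1.13) and Tyrobp (0.23) were above 0 as well and C1qa was at 2.41.

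In the batch 1 somas, 5 members were tested and 0 called, with 4.42% of all genes called, and C1qa had an unadjusted p under 0.05 and was called by DESeq2. Ly86 had a log2 fold change of −3.51 ± 2.28 with all 4 controls and 1.82 ± 0.55 without control replicate 3, a change of direction that comes with a shift in the scaling: the median of all genes was −0.45 with that library and 0.37 without. Scaled by library size alone, with all 4 controls, Ly86 was at 0.78. Without replicate 3, 24.3% of all genes were called, and Ly86, C1qa and Lyz2 were among them. Without control replicate 1, a or b, each left out in turn, 0 genes were called. In the batch 2 somas, 9 members were tested and 0 called, with 0% of all genes called (0 of 15280, 2503 at an unadjusted p under 0.05 and 1527 by DESeq2). Ly86, Tyrobp and Lyz2 had an unadjusted p under 0.05, and DESeq2 called 2 members, Tyrobp and Lyz2. Without control replicate 5, the control with 631 CPM of Ly86, 3 members were called (Ly86, Lyz2 and Tyrobp) with 11.7% of all genes called (1826 of 15612), and Ly86 had a log2 fold change of 2.16. Without control replicate 7 it was 2 members (Lyz2 and Tyrobp) and 3.12% of all genes. With all libraries Ly86 was higher in the Cre somas by 1.49 ± 0.44, while the other 8 tested were all below 0 with a median of −2.20, against 0.06 for all genes.

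**Figure D4:**
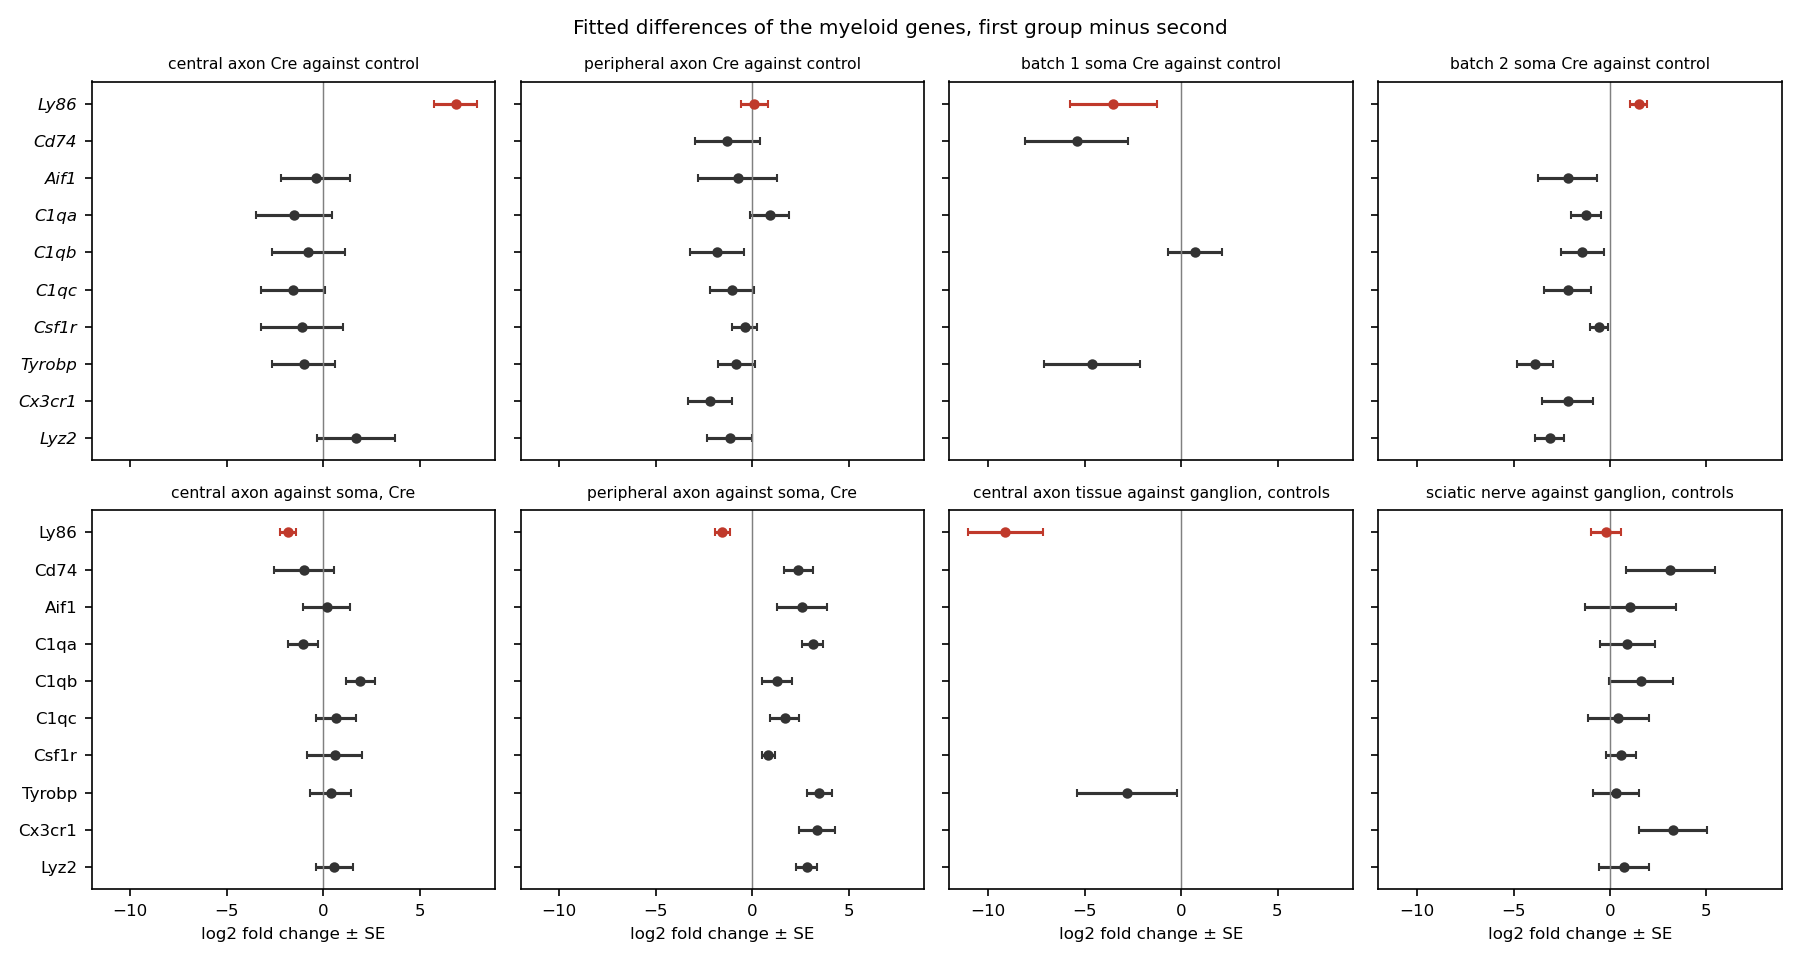
Points are fitted log2 fold changes with bars of 1 SE, first group minus second, for each of 8 comparisons; Ly86 is in red, and genes that were not tested or had at most 3 counts in every library of a group are left out. Against control, Ly86 lies at 6.86 in the central axon and 1.49 in the batch 2 somas, where the other members tested lie below 0.

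Within the Cre libraries, the axon was set against the soma of the same batch. In the central axon 9 members were tested and 1 was called, with 13.7% of all genes called. It was Ly86, lower in the axon by a log2 fold change of −1.81 ± 0.41, and its groups did not overlap (175 to 480 against 534 to 1190 CPM). The other 8 tested had a median of 0.48, against 0.05 for all genes, and C1qb, at 1.92 ± 0.75, was the other member whose groups did not overlap. The share of all genes without overlap was not counted, so nothing is read from the number of such members. In the peripheral axon 10 were tested and 6 called, with 31.1% of all genes called. Ly86 was lower in the axon by −1.54 ± 0.37, and the others called were higher: Tyrobp by 3.48 ± 0.66, Cx3cr1 by 3.34 ± 0.94, C1qa by 3.14 ± 0.56, Lyz2 by 2.83 ± 0.55 and Cd74 by 2.39 ± 0.75. All 9 members other than Ly86 were above 0, with a median of 2.58 against −0.03 for all genes.

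In these axon-to-soma contrasts the nociceptor markers had the direction of Ly86. All 6 were below 0 in both axons. In the central axon 3 of 6 were called (Trpv1, Mrgprd and Prph), with 13.7% of all genes called. In the peripheral axon 4 of 6 were called (Scn10a, Calca, P2rx3 and Prph), with 31.1% of all genes called. Their medians were −1.48 and −2.04, against 0.05 and −0.03 for all genes. In the batch 2 somas, Cre against control, the 6 markers ran from −0.02 ± 0.40 (Trpv1) to 1.01 ± 0.39 (Mrgprd). Scn10a was at 0.26 ± 0.29 there and Ly86 at 1.49 ± 0.44. Calca fell by 2.35 ± 0.40 on the log2 scale from the batch 2 Cre somas to the peripheral axon (edgeR quasi-likelihood, adjusted p = 0.00128). When the central axon relative to its somas was set against the peripheral axon relative to its own, 10 members were tested and 1 was called, with 12.7% of all genes called. It was C1qa, at −4.05 ± 0.95 (−2.96 without batch 1 Cre soma replicate 4), lower in the central contrast. Ly86 was at −0.19 ± 0.57 there, with both of its axon contrasts below 0.

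The controls were compared in the same way, as a picture of what came down without a tag. Between central axon tissue and ganglion 2 members were tested and 0 called, with 0% of all genes called (0 of 9202, 1138 at an unadjusted p under 0.05 and 796 by DESeq2). Ly86, at −9.11 ± 1.94, had an unadjusted p under 0.05, and DESeq2 called 2 members, C1qc and Cd74. Without batch 1 soma control replicate 3 Ly86 was at −6.36 ± 1.85, and 0 members were called with 0.0177% of all genes called. Between sciatic nerve and ganglion 10 were tested and 0 called, with 0.0802% of all genes called (11 of 13715). There 0 members had an unadjusted p under 0.05 and DESeq2 called 0. The other 9 members were all above 0 there with a median of 0.89, and C1qa (−0.58), C1qb (−1.36), Aif1 (−1.93) and Tyrobp (−0.73) were below 0 without nerve control replicate 2. Cx3cr1 (13.9, 49.0 and 20.6 CPM in nerve, 0 to 10.1 CPM in ganglion) was the only one without overlap. Nothing is read from this either, since the share of all genes without overlap was not counted. Ly86 was at −0.22 ± 0.77.

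Further myeloid genes, from lists given by symbol but chosen with earlier results known, were looked at beside the members. Their adjusted p-values are part of the description. Of 11 tissue macrophage markers 4 could be tested between the peripheral axon and soma Cre libraries, and 3 rose in the axon: Pf4 (platelet factor 4, by 4.14 ± 0.47, adjusted p = 0.00011), F13a1 (coagulation factor XIII, 3.67 ± 1.04, adjusted p = 0.0198) and Lyve1 (a hyaluronan receptor, 1.83 ± 0.55, adjusted p = 0.027), with edgeR's quasi-likelihood test. Pf4 was at 43.4 CPM (38.1 to 53.0) in the axon and 2.12 CPM (0.92 to 3.66) in the soma. Of 14 pan-myeloid markers 10 were tested and 5 rose, with 31.1% of all genes called there (4817 of 15467, 2888 of them higher in the axon). The 5 included Ctss (cathepsin S, 24.7 against 1.18 CPM) and Spi1 (PU.1, 6.05 against 0.50 CPM), and of 10 microglia markers 4 were tested and 3 rose, Tmem119, Fcrls and Trem2. The medians of the genes tested were 3.38, 2.78 and 3.00 for the 3 lists, against −0.03 for all genes.

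Between central axon and batch 1 soma Cre libraries, 0 of 4 tissue macrophage, 0 of 4 pan-myeloid and 2 of 6 microglia markers tested were called, with 13.7% of all genes called. The 2 were Fcrls (6.93 against 0.06 CPM) and Sall1 (16.1 against 0.03 CPM), and Sall1, a transcription factor gene of microglia, is also known from neural progenitors and glia. The defining microglial receptor gene P2ry12 was at 0 to 2.80 CPM in the central axon Cre libraries and 0 to 12.8 CPM in the controls, and Siglech at 0 to 0.47 and 0 to 3.39 CPM.

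**Figure D5:**
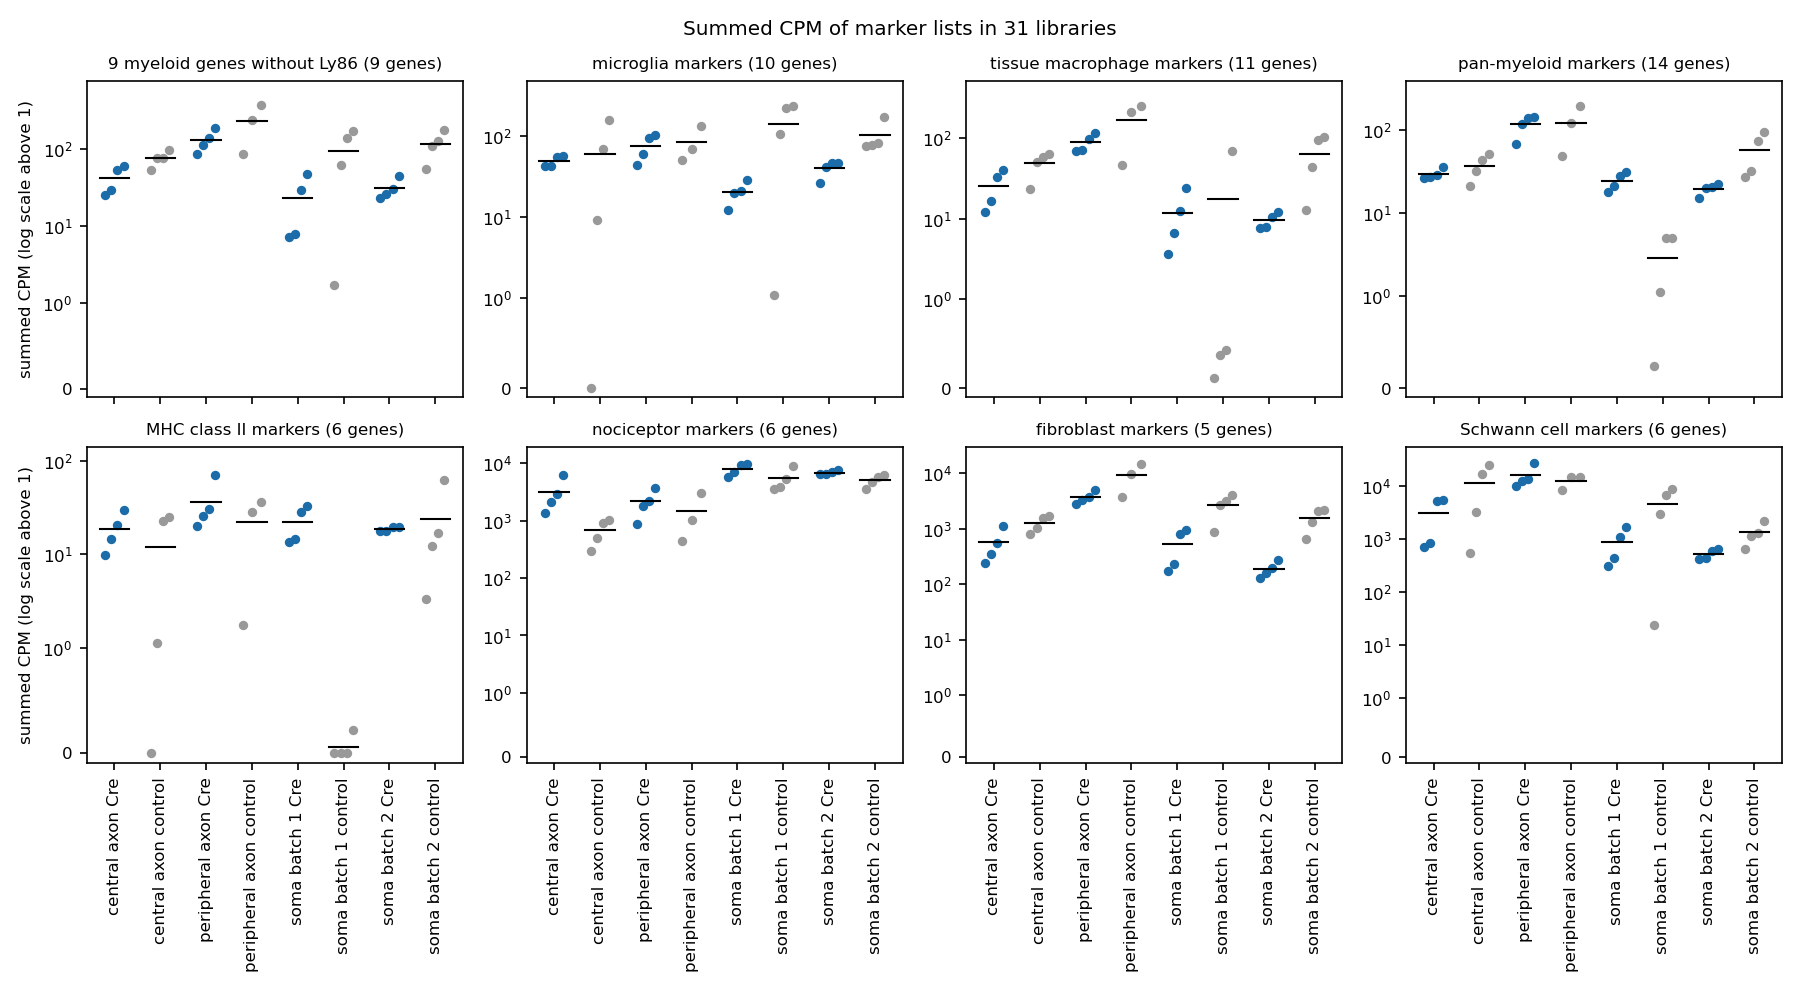
Each panel gives the summed CPM of one list of genes in every library, on a scale that is logarithmic above 1, with blue points for Cre, grey for control and a line at the mean. The 9 myeloid genes without Ly86 and the tissue macrophage markers are highest in the peripheral axon groups, while the nociceptor markers are highest in the Cre somas, at 5752 to 9574 CPM in batch 1.

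Other cells of nerve showed how far the libraries hold RNA from outside the neurons. Schwann cell markers, Mbp the highest of them, summed to 10105 to 27128 CPM in the peripheral axon Cre libraries and 430 to 639 CPM in the batch 2 Cre somas. Fibroblast markers summed to 2757 to 5020 CPM and 132 to 273 CPM in the same groups. The 9 myeloid members summed to 87.9 to 186 and 23.3 to 44.6 CPM, so all 3 lists were higher in the axon libraries. The part of these cells in the members' differences was not tested.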

How the data were processed

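Ribosome-bound RNA from 31 libraries in 8 groups was analysed. As deposited by the authors, the values are unnormalised gene counts in 2 tables, 1 for each batch. Per the submitters' processing notes, STAR 2.7.2b and the mm10 genome were used, and per the labels' protocols the libraries were made from very small RNA amounts with a SMART-Seq v4 kit. The strand setting of the counting is not given in the sources used here. The members and lists were chosen with earlier results on these libraries known. From the counts, CPM and TPM were computed, and each comparison was fitted in edgeR 4.0.16 (R 4.3.3, limma 3.58.1) with TMM factors, filterByExpr, the quasi-likelihood test and Benjamini-Hochberg adjustment over all genes tested, using only the groups compared; the contrast of both axons was fitted over 4 Cre groups. These procedures were tested on simulated data. The SE of an edgeR log2 fold change was back-computed, as its absolute value divided by the square root of its F statistic. Python 3.11.15 with pandas 2.3.3 and SciPy 1.17.1 was used for summaries. Alternatives were other scalings, no low-count filter, DESeq2 1.42.0, fitting every group of a batch jointly, the replicate block and leaving out each library. Named genes were the 10 members, genes of the myeloid lists, the 5 genes with the highest r with Ly86, Scn10a and the highest gene of each list of other cells; the nociceptor markers were named after their values were seen. Deviations of same-numbered libraries had r from −0.12 to 0.21, and from −0.005 to 0.196 in central axon against soma. Values for differently numbered libraries are not given beside these, so they do not settle whether libraries of 1 number belong together. The main fits did not pair them, and the replicate block is given as an alternative. A gene of 1 marker list is not reported here.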

Additional observations from a re-analysis of the deposited data

Results flagged for a closer look

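Within each group of 4 libraries, a value was singled out when its gap to the nearest other library, divided by the group's whole range, passed Dixon's 95% critical value. The chance rate of about 1 in 20 groups holds for normally distributed values, which CPM with many zeros are not. Where all libraries but 1 are at 0, that library passes whatever its value. This was so for Aif1, C1qa, C1qb and C1qc in the batch 1 soma controls and Cd74 in the central axon controls. The number passing therefore cannot be set against chance. Of 68 pairs of a gene and a group, 12 passed, 9 of them in control groups. In the batch 1 soma controls these were Aif1 in replicate 1 (61.9 CPM), Cd74 in a (139 CPM), Tyrobp in b (168 CPM), C1qb in b (4.13 CPM), C1qa in b (0.25 CPM) and C1qc in replicate 3 (0.11 CPM). In the central axon controls they were Lyz2 (7.596 CPM) and Cx3cr1 (5.82 CPM) in replicate 1 and Cd74 in replicate 4 (0.10 CPM). The values for C1qa, C1qc and the last Cd74 value rest on 3 counts or fewer. In the Cre groups they were Tyrobp (2.38 CPM) and Lyz2 (3.98 CPM) in batch 2 soma replicate 6, and Lyz2 in peripheral axon replicate 4 (28.6 CPM). No Ly86 value passed.

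The axon-to-soma contrast of C1qa differed between the central and the peripheral axon, with a log2 difference of −4.05 ± 0.95 (SE) in edgeR's quasi-likelihood fit over the Cre libraries. C1qa was at 4.39 against 7.14 CPM in central axon and batch 1 soma and at 28.2 against 2.81 CPM in peripheral axon and batch 2 soma. The batch 1 Cre somas had a median of 3.84 CPM and a highest value of 18.8 CPM. Without batch 1 Cre soma replicate 4 the log2 difference was −2.96. The central axon against its somas went from −1.055 to −0.021 without that library. The central axon is only in batch 1 and the peripheral axon only in batch 2, so batch and axon cannot be told apart beyond the somas of each batch.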

How the results depend on the processing

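Of 1038 alternative values of the members' 73 fold changes, 977 moved by less than the spread between replicates. Members called moved as follows. In the central axon against control, 0 became 1 without a low-count filter and 1 with DESeq2 (0 to 1 over single libraries left out). In the batch 1 somas, 0 became 1 with RLE scaling, library size alone, no filter or DESeq2 (0 to 3 over single libraries left out). In the batch 2 somas, 0 became 1 with library size alone and 2 with DESeq2 (0 to 3). Central axon against soma went from 1 to 2 with DESeq2 and to 0 in a joint fit of every group of its batch (1 in every fit with a library left out). Peripheral axon against soma went from 6 to 2 in the joint fit (4 to 9). Central axon tissue against ganglion went from 0 to 1 without a filter, 2 with DESeq2 and 5 in the joint fit (0 to 1), and the contrast of both axons from 1 to 2 with DESeq2 (1 to 2). The other 2 comparisons stayed at 0 under all alternatives run. The replicate block gave 0 members called in the central axon, peripheral axon and both soma comparisons and in central axon tissue against ganglion, and 1 in central axon against soma. With it, Aif1 (2.40), C1qa (2.29), C1qb (3.63), C1qc (0.37) and Csf1r (1.95) turned to above 0 in the central axon against control. It could not be run for the peripheral axon against soma or sciatic nerve against ganglion, which share no replicate number, and was not run for the contrast of both axons. Of all genes, calls went from 2 to 34 without a filter, 437 with DESeq2, and 1 in the joint fit or with the replicate block in the central axon, from 0 to 88 with DESeq2 and 1 in the joint fit in the peripheral axon, from 516 to 2247 (library size alone), 1700 (no filter), 1498 (DESeq2), 2103 (joint fit) and 0 (replicate block) in the batch 1 somas, and from 0 to 21 (RLE), 256 (library size alone), 162 (no filter), 1527 (DESeq2) and 175 (joint fit) in the batch 2 somas. They went from 1990 to 3752 (DESeq2) and 15 (joint fit) for central axon against soma, from 4817 to 1404 (joint fit) for peripheral axon against soma, from 0 to 5 (library size alone), 46 (no filter), 796 (DESeq2) and 3855 (joint fit) for central axon tissue against ganglion, from 11 to 268 (no filter), 835 (DESeq2) and 526 (joint fit) for sciatic nerve against ganglion, and from 2125 to 3619 (DESeq2) for the contrast of both axons. The cause was not tested. Low counts limit the 9 genes other than Ly86, of which 62 of 135 control values rest on 3 counts or fewer.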
